A study of Mus musculus with 21 samples.

Results

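Mammary organoids carrying the Mre11 ATLD1 allele in both copies (ATLD) were compared with wild-type organoids (WT) at day 28 of neuT activation, across all genes. Both genotypes were primary cultures of mouse mammary epithelium, both had neuT switched on, and both were sampled at the same day, so the groups differ by their labels in the Mre11 genotype. The study holds 21 libraries of polyadenylated RNA, from WT and ATLD at day 0, day 14 and day 28. The comparison uses 3 ATLD and 3 WT libraries of day 28, and a second run of WT replicate 1 that was sequenced together with the ATLD samples, which makes 7 libraries of the 21. All 3 original WT libraries come from an earlier sequencing batch than the ATLD libraries, so apart from the second run the genotype and the batch coincide. No day 28 library without neuT is among the samples. Nothing in the labels ties a replicate to an animal of its own, and p-values therefore reflect only how far these samples spread, which may be technical. What drives the neuT transgene, and in which cells, is not given in these sources.

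Mre11 is the nuclease of the complex with Rad50 and Nbs1 that binds DNA double-strand breaks, trims their ends and activates the kinase Atm. The ATLD1 allele is named after ataxia-telangiectasia-like disorder and leaves cells with reduced amounts of the complex. neuT is an activated form of Erbb2, a receptor tyrosine kinase that drives mammary tumours. The mammary epithelium has an outer basal or myoepithelial layer and an inner luminal layer, which holds hormone-sensing cells and progenitors that make milk proteins when they differentiate.

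Levels are in counts per 1e+06 counts of a library (CPM), scaled by TMM. Differences are log2 values of ATLD minus WT with their standard error (SE), from an edgeR quasi-likelihood fit with a batch term, and p-values are Benjamini-Hochberg adjusted over 18844 genes. A gene is called at an adjusted p under 0.05. The 7 libraries held 32548362 to 51757203 counts. The first principal component of these libraries held 90.8% of the variance and placed the 4 WT libraries opposite the 3 ATLD libraries. The SD over genes of the log2 ratio between libraries was 1.10 to 1.44 between genotypes, 0.247 to 0.358 between ATLD replicates and 0.156 between the runs of WT replicate 1. WT replicate 2 stood apart, with fewer counts of GC-rich genes, at 0.440 to 0.516 from the other WT libraries, which differed among themselves by 0.128 to 0.174. The original WT libraries also held lung transcripts at low level: Sftpc, the lung surfactant protein C, was at 5.36 to 10.4 CPM there, at 0.184 CPM in the second run and at 0.149 CPM or less in ATLD. Lyz2, a myeloid lysozyme, was at 5.29 to 8.77 CPM in the original WT libraries and at 0.0235 CPM or less in the other day 28 libraries. The whole list of lung markers summed to 15.7 to 23.8 CPM in the original WT libraries, 8.84 CPM in the second run and 15.03 to 19.1 CPM in ATLD. Sftpd, surfactant protein D, was itself at 13.5 to 16.95 CPM in ATLD, and Sftpa1, Sftpb and Scgb1a1 were at 0.0683 CPM or less there. Of the 18844 genes, 5522 were called higher in ATLD (29.3%) and 6575 lower (34.9%), together 64.2%. Changes of at least 2-fold were called for 6855 genes (36.4%), 2306 higher (12.2%) and 4549 lower (24.1%). The 3 ATLD values lay outside the range of the 4 WT values for 71% of the genes, so a gene that separates the genotypes is common here.

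Mre11a, the gene of the mutated nuclease (ENSMUSG00000031928, mm10 chromosome 9, 14784654 to 14837123), was at 45.1, 52.5 and 43.3 CPM in WT replicates 1, 2 and 3 and at 42.2 CPM in the second run. In ATLD replicates 1, 2 and 3 it was at 14.9, 16.6 and 14.8 CPM. The groups did not overlap, and the difference was -1.47 ± 0.11 (adjusted p = 1.00e-09). Of its partners in the complex, Rad50, the ATPase of the complex, was at 77.5 ± 8.19 CPM in WT and at 66.3 ± 5.43 CPM in ATLD (SD, n = 3) and was not called, and Nbn, which encodes Nbs1, was higher by 0.43 ± 0.15, a call that was lost in the second batch alone, with a batch term of its own for each day, in the compared days alone and in the original libraries with no batch term. Both partners were named after their values were seen. Erbb2 (ENSMUSG00000062312, chromosome 11, 98412470 to 98437716) was at 128, 75.3 and 133 CPM in WT, 129 CPM in the second run, and 76.7, 72.2 and 107 CPM in ATLD. The groups overlapped at WT replicate 2, the library low in GC-rich genes. The difference was -0.74 ± 0.28 (adjusted p = 0.0266), and the call was lost without ATLD replicate 1 (adjusted p = 0.0793), without ATLD replicate 2 (adjusted p = 0.0909) or without WT replicate 1 (adjusted p = 0.101). It was also lost with a replicate block (adjusted p = 0.0567), in the second batch alone (adjusted p = 0.0533), with a batch term of its own for each day (adjusted p = 0.167), in the compared days alone (adjusted p = 0.133), and in fits with no batch term, where the difference was -0.39 to -0.40. It is not known here whether reads of the neuT transgene were counted in the mouse gene.

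**Figure D1:**
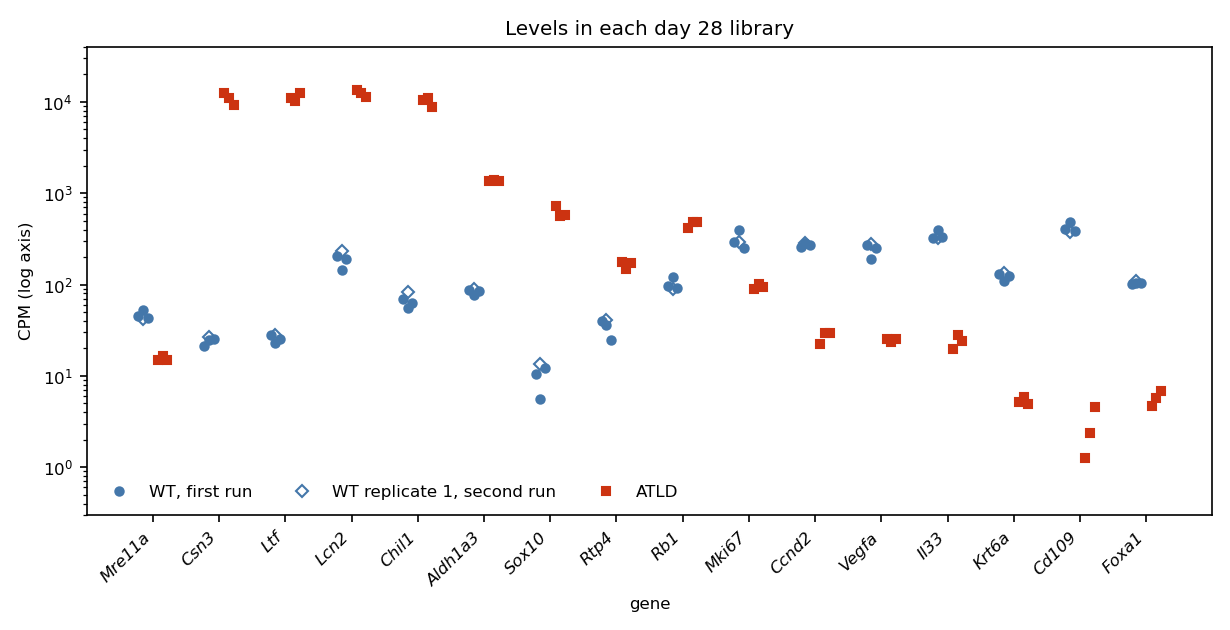
Levels of 16 genes in each day 28 library, in CPM on a log axis; circles are the 3 original WT libraries, open diamonds the second run of WT replicate 1 and squares the 3 ATLD libraries. Mre11a lies lower in all 3 ATLD libraries, while Csn3, Ltf, Lcn2 and Chil1 lie between 8896 and 13510 CPM in ATLD and at 233 CPM or less in WT.

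Luminal progenitor markers and milk genes were far higher in ATLD. Of 20 luminal progenitor markers 18 were called higher, with a median difference of 3.22, beside 29.3% called higher and a median of -0.05 over all genes tested. Of 17 tested milk and secretion genes 16 were called higher and 1 lower, with a median of 3.15. Members are shared between these lists, Csn3 among them, so their counts are not independent. The 10 largest rises together took 3.05% to 3.21% of all counts in the ATLD libraries and 0.0130% to 0.0168% in the WT libraries.

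Csn3 (ENSMUSG00000001622, chromosome 5), which encodes kappa-casein of milk, was at 21.4, 24.5 and 25.3 CPM in WT, 26.7 CPM in the second run, and 12450, 11190 and 9353 CPM in ATLD. Its difference of 8.85 ± 0.27 was the largest rise among the genes named by rank. Ltf, the iron-binding milk protein lactoferrin, was at 28.3, 22.7 and 25.4 CPM in WT, 28.4 CPM in the second run, and 11000, 10220 and 12480 CPM in ATLD (8.66 ± 0.17). For both genes every ATLD library lay far above every WT library. Lcn2, the iron-scavenging lipocalin 2 of epithelial defence, was at 145 to 233 CPM over the 4 WT libraries and at 11290 to 13510 CPM in ATLD (5.77 ± 0.19). Chil1, a secreted chitinase-like protein, was at 55.1 to 83.3 CPM in WT and at 8896 to 11010 CPM in ATLD (7.04 ± 0.20). Wfdc18, a secreted protease inhibitor of mammary epithelium, was at 79.0 to 126 CPM in WT and at 5018 to 6402 CPM in ATLD. All 3 separate the genotypes without overlap.

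Regulators and surface markers of the luminal progenitor moved with the secreted proteins. Sox10, a transcription factor shared by mammary progenitors and nerve sheath cells, was at 10.5, 5.62 and 12.1 CPM in WT, 13.5 CPM in the second run, and 722, 564 and 576 CPM in ATLD (5.33 ± 0.34). Of 9 tested nerve sheath markers, Sox10 among them, 3 were called higher (33.3%) and 4 lower (44.4%), beside 29.3% and 34.9% of all genes. Cdh19, a cadherin of nerve sheath cells, was at 0, 0.0822 and 0 CPM in WT, 0.0408 CPM in the second run, and 17.2, 20.8 and 19.7 CPM in ATLD, and was named after its values were seen. The part of nerve sheath cells in the Sox10 result was not tested. Erbb3, a neuregulin receptor, was lower by 0.52 ± 0.16, and lost its call in the second batch alone (adjusted p = 0.156), with a batch term of its own for each day (adjusted p = 0.0814) and in the compared days alone (adjusted p = 0.124) in edgeR. Aldh1a3, an enzyme of retinoic acid synthesis, was at 76.0 to 88.4 CPM in WT and at 1354 to 1406 CPM in ATLD (3.95 ± 0.11). Of the aldehyde dehydrogenases, Aldh1a1 went the other way, at 45.3, 54.4 and 45.3 CPM in WT, 48.1 CPM in the second run, and 0.364, 0.403 and 0.494 CPM in ATLD (-6.78 ± 0.20). Elf5, the transcription factor of secretory differentiation, was at 22.6 ± 1.62 CPM in WT and at 664 ± 47.4 CPM in ATLD (4.85 ± 0.15), and Kit, a receptor of luminal progenitors, at 35.6 ± 2.17 and 235 ± 90.5 CPM (2.65 ± 0.24); both were named after their values were seen. Csn1s1, alpha-S1-casein, was at 1.64 to 2.33 CPM in WT and at 147 to 163 CPM in ATLD (6.24 ± 0.21). Muc15, a mucin of the milk fat globule, was at 58.2 to 79.6 CPM and 622 to 715 CPM.

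The promoter of Csn1s1 is printed because it holds TTCNNNGAA, a palindromic motif that STAT5, the transcription factor of prolactin signalling, can bind; capitals mark the motif. The 49 bases lie upstream of the start, on the plus strand at chr5:87666088-87666136 (RefSeq, GRCm38.p6):
Csn1s1: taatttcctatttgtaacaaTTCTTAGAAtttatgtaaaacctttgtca
The motif was searched in 300 bases around each RefSeq start, 250 before and 50 after, and was chosen after the values were seen. It was in 8.3% of all 32851 promoters and in 8.33% of the 24 promoters of milk and luminal progenitor genes called higher, so it did not set these genes apart in this window.

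Further genes, of secreted, membrane and intracellular proteins, were among the 10 largest rises. Saa1 and Saa2, acute-phase serum amyloid proteins, were higher by 6.64 ± 0.34 and 7.76 ± 0.37. Saa2 was at 0.209 to 0.347 CPM in WT and at 39.3 to 60.8 CPM in ATLD. The copies are close paralogs whose reads can be shared, so the split between them is uncertain. Crispld2, a secreted protein that binds lipopolysaccharide, was at 4.03 to 6.35 CPM in WT and at 806 to 1066 CPM in ATLD (7.19 ± 0.21). Alpl, the tissue-nonspecific alkaline phosphatase, was at 5.10 to 8.78 and 758 to 1058 CPM (6.64 ± 0.22), and Them5, a mitochondrial thioesterase, at 0.905 to 1.48 and 109 to 134 CPM (6.67 ± 0.27). Dcdc2a, a doublecortin-domain protein of cilia and microtubules, was at 0.255 to 0.422 and 17.3 to 21.7 CPM (5.84 ± 0.28).

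**Figure D2:**
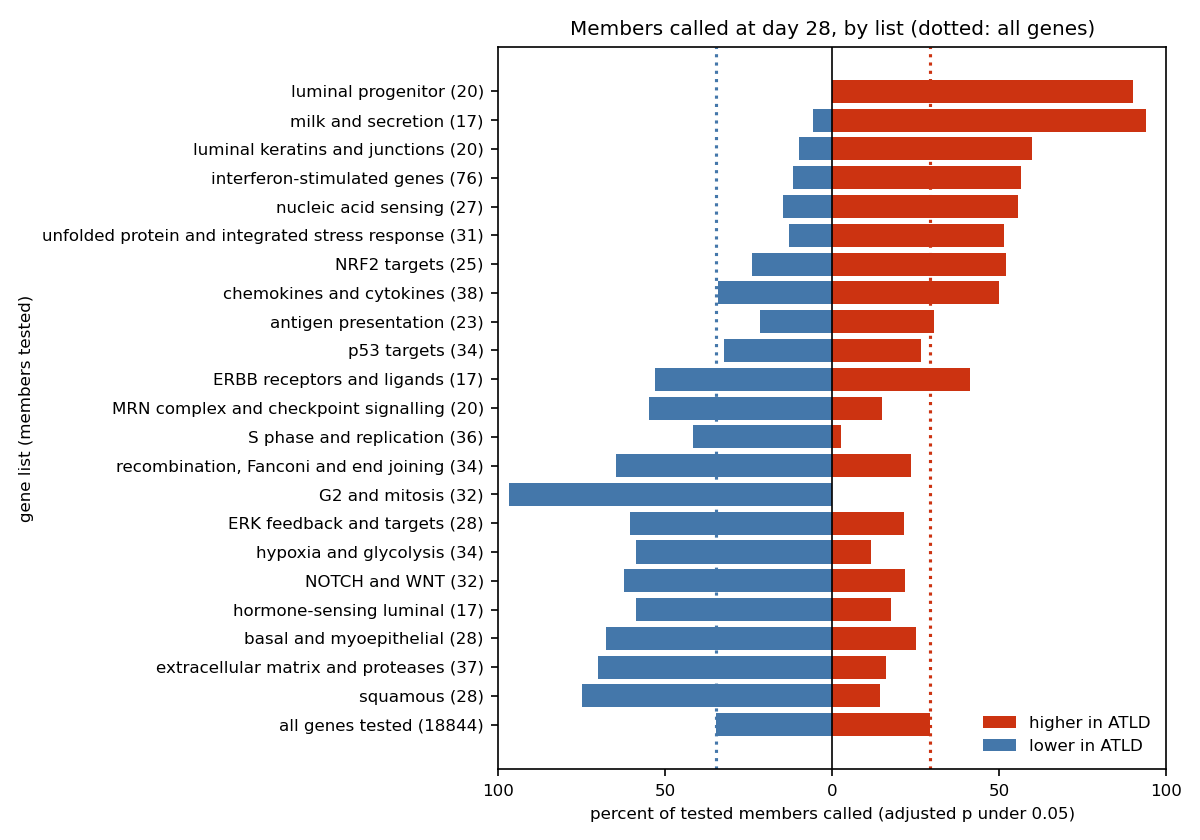
Percent of tested members of each gene list called higher (right) or lower (left) in ATLD at day 28, with the number of members tested in brackets and dotted lines at the shares over all genes. The luminal progenitor and milk lists, which share members, extend farthest to the right, with 18 of 20 and 16 of 17 members higher, and the G2 and mitosis list farthest to the left, with 31 of 32 lower.

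Luminal keratins and junction proteins were higher as well: of 20 tested, 12 were called higher and 2 lower, with a median of 0.85, or 13 and 4 with a median of 0.45 once GC and length trends were removed. Krt7 and Krt18, keratins of simple epithelium, were at 15.3 to 28.1 and 263 to 393 CPM in WT and at 199 to 278 and 1351 to 1706 CPM in ATLD. Cldn7, a tight junction claudin, was higher by 2.37 ± 0.25. Hormone-sensing luminal genes went down instead, with 10 of 17 tested called lower and 3 higher and a median of -1.66. Foxa1, the pioneer factor of oestrogen-responsive cells, was at 100.3, 105 and 104 CPM in WT, 109 CPM in the second run, and 4.71, 5.73 and 6.75 CPM in ATLD (-4.28 ± 0.20). Esr1, the oestrogen receptor, was at 27.8 ± 1.55 CPM in WT and at 8.66 ± 1.43 CPM in ATLD (-1.66 ± 0.18), named after its values were seen. Fgb, the fibrinogen beta chain, was at 25.8 to 28.6 CPM in WT and at 0.127 to 0.188 CPM in ATLD (-7.43 ± 0.20), and Cited1, a transcriptional co-activator of oestrogen signalling, at 5.18 to 11.9 and 1.05 to 1.18 CPM. Ly6d, a surface protein of epithelia, was at 1251, 645 and 1239 CPM in WT, 1517 CPM in the second run, and 100.4, 88.6 and 88.7 CPM in ATLD.

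Basal and myoepithelial genes were mostly lower, with 19 of 28 called lower and 7 higher and a median of -1.86. Their summed level overlapped between the genotypes, at 10010 to 16640 CPM in WT and 10370 to 15280 CPM in ATLD. Lama3, a laminin chain that anchors basal cells, was at 308, 297 and 300.3 CPM in WT, 290.2 CPM in the second run, and 12.6, 17.2 and 30.98 CPM in ATLD (-3.85 ± 0.35). Col17a1, a hemidesmosomal collagen, was at 756 to 1230 CPM in WT and at 73.5 to 167 CPM in ATLD (-3.67 ± 0.40). Cdh3, P-cadherin, fell by 3.58 ± 0.30 and Jag2, a NOTCH ligand, by 4.45 ± 0.57. For Lama3, Col17a1, Cdh3 and Jag2, ATLD replicate 3 was the highest of the ATLD libraries, and still under the lowest WT library. Trp63, the p63 master regulator of basal cells, was at 197 ± 4.58 and 43.6 ± 7.71 CPM (-2.21 ± 0.15), and the basal keratin gene Krt5 at 3246 ± 930.1 and 797 ± 45.7 CPM (-2.43 ± 0.27). Among the 7 members called higher were Acta2, smooth muscle actin, by 1.09 ± 0.15, Oxtr, the oxytocin receptor, by 1.82 ± 0.11, and Igfbp5, a binding protein of insulin-like growth factors, by 1.97 ± 0.21. These 5 were named after their values were seen.

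Genes of squamous, skin-like epithelium and of extracellular matrix were lower. Of 28 tested squamous genes 21 were called lower and 4 higher, with a median of -2.78. Dsc3 and Dsg3, desmosomal cadherins, were at 105 to 137 and 336 to 402 CPM in WT and at 1.11 to 3.998 and 8.81 to 21.8 CPM in ATLD. Krt6a, a keratin of stressed epidermis, was at 130, 111 and 125 CPM in WT, 134 CPM in the second run, and 5.17, 5.84 and 4.96 CPM in ATLD (-4.62 ± 0.16). Calml3, a calmodulin-like protein of stratified epithelium, fell by 4.42 ± 0.15. Of 37 matrix and protease genes 26 were called lower and 6 higher, with a median of -1.56. Col7a1, the anchoring-fibril collagen, was at 160 to 372 CPM in WT and at 9.40 to 22.1 CPM in ATLD (-4.80 ± 0.59). Fbn1, fibrillin 1, fell by 3.66 ± 0.55. Fn1, fibronectin, rose, from 9.73 to 13.1 CPM in WT to 82.7, 155 and 144 CPM in ATLD (3.46 ± 0.43). Markers of fibroblasts were lower too, with 7 of 10 tested called lower, and their summed level was 81.9 to 110.4 CPM in WT and 28.3 to 48.7 CPM in ATLD. In bulk RNA, fewer cells of a type and less RNA per cell cannot be told apart, and the part of fibroblasts in the matrix result was not tested. Of the other cell types, endothelial markers summed to 5.12 to 8.15 CPM in WT and 4.28 to 5.05 CPM in ATLD, and lymphocyte markers to 3.02 to 3.78 and 2.57 to 3.65 CPM. Macrophage and myeloid markers summed to 23.7 to 37.2 CPM in WT and 36.5 to 48.1 CPM in ATLD, with 3 of 8 tested called higher (37.5%, beside 29.3% of all genes).

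Further genes fell by large amounts. Cd109, a membrane protein that binds TGF-beta, was at 409, 490.0 and 386 CPM in WT, 380.2 CPM in the second run, and 1.25, 2.36 and 4.54 CPM in ATLD (-7.08 ± 0.44). Fat2, an atypical cadherin of migrating epithelium, was at 275 to 324 CPM and 2.89 to 7.69 CPM, and Dchs2, a protocadherin, at 99.7 to 109 CPM and 0.387 to 0.847 CPM. Abca12, the lipid transporter of the skin barrier, fell by 6.09 ± 0.29, Sema3b, a secreted semaphorin, by 6.72 ± 0.39, and Shank1, a scaffold of synapses, by 6.08 ± 0.57. The cholesterol and fatty acid synthesis list as a whole was split, with 7 of 32 higher (21.9%) and 13 lower (40.6%) and a median of 0.02, beside 29.3% and 34.9% of all genes. H19, an imprinted non-coding RNA, was at 157 to 211 CPM in WT and at 9.85 to 11.2 CPM in ATLD (-4.34 ± 0.23), while Grb10, an imprinted adaptor of insulin signalling, was at 0.279 to 0.715 and 17.2 to 18.8 CPM (4.91 ± 0.22).

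Genes of low oxygen and glycolysis were lower in 20 of 34 cases and higher in 4, with a median of -0.82. The summed level of the list was not lower, at 8387 to 12550 CPM in WT and 11740 to 14010 CPM in ATLD. Vegfa, the growth factor of blood vessels, was at 274, 192 and 250 CPM in WT, 277 CPM in the second run, and 25.4, 23.4 and 25.7 CPM in ATLD (-3.57 ± 0.16). Ndufa4l2, a mitochondrial protein induced by low oxygen, was at 57.6 to 148 CPM and 0.509 to 1.87 CPM (-7.07 ± 0.60), and Slc16a3, the lactate exporter, at 19.4 to 48.5 and 1.25 to 2.41 CPM (-4.97 ± 0.51). WT replicate 2 was the lowest WT library for these 3 genes and stayed above every ATLD library. P4ha1, a collagen prolyl hydroxylase, fell by 2.31 ± 0.12. Glycolytic enzymes did not fall together: Aldoc, aldolase C, rose from 152 ± 28.3 CPM to 854 ± 83.2 CPM (2.17 ± 0.17), and Ldha, lactate dehydrogenase A, by 0.65 ± 0.15, both named after their values were seen.

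Genes of mitosis were lower. Of 32 genes of G2 and mitosis 31 were called lower, with a median of -0.83. Mki67, the proliferation antigen, was at 292, 400 and 253 CPM in WT, 291 CPM in the second run, and 90.2, 102 and 94.8 CPM in ATLD (-1.63 ± 0.18). Foxm1, the transcription factor of mitotic genes, was at 31.9 to 47.0 CPM in WT and at 12.0 to 14.0 CPM in ATLD (-1.83 ± 0.19), and the centromere proteins Cenpa and Cenpf both fell by 1.25, with SE of 0.13 and 0.22. Of 36 genes of S phase and replication 15 were called lower (41.7%, beside 34.9% of all genes), 1 was called higher and 20 were not called, with a median of -0.34. Those that fell included Mcm10, a replication initiation factor (-1.11 ± 0.13), Rrm2, the regulated subunit of ribonucleotide reductase (-1.01 ± 0.13), and Pole, the leading-strand polymerase (-1.14 ± 0.15). Without WT replicate 1, 8 S phase genes were called lower, and in the second batch alone 7. Of 20 genes of G1 control 3 were called higher and 7 lower (35%, near the share of all genes), or 12 lower with GC and length trends removed. Rb1, the retinoblastoma tumour suppressor, was at 96.0, 122 and 91.4 CPM in WT, 88.9 CPM in the second run, and 420, 484 and 488 CPM in ATLD (2.43 ± 0.17). Ccnd2 and Cdk6, a cyclin and its kinase that inactivate the Rb1 protein, were at 259 to 287 and 181 to 201 CPM in WT and at 22.4 to 29.8 and 32.0 to 52.4 CPM in ATLD.

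Genes of break repair were lower more often than higher. Of 20 genes of the Mre11 complex and checkpoint signalling 11 were called lower (55%) and 3 higher (15%), with a median of -0.41. Over all genes 34.9% were called lower and 29.3% higher. The 3 higher became 1 without ATLD replicate 2 or without WT replicate 1. All 3 lost the call with a batch term of its own for each day, in the compared days alone and in the fits with no batch term. Brca1, a scaffold of recombination, was at 29.8, 37.6 and 32.9 CPM in WT, 28.7 CPM in the second run, and 9.31, 11.1 and 9.502 CPM in ATLD (-1.57 ± 0.14). Rbbp8, which encodes the end-resection partner CtIP, fell by 1.41 ± 0.15, and Atm, the kinase that the complex activates, was at 61.6 to 84.5 CPM and 15.6 to 29.6 CPM (-1.38 ± 0.21). Of 34 genes of recombination, the Fanconi pathway and end joining 22 were called lower (64.7%) and 8 higher (23.5%), with a median of -0.71. Polq, the polymerase of microhomology-mediated joining, fell by 1.77 ± 0.19, Fancm, a DNA translocase, by 1.72 ± 0.21, Rad51b, a protein of recombination, by 1.62 ± 0.14, and Prkdc, the catalytic subunit of DNA-dependent protein kinase, by 1.55 ± 0.17. Xrcc4, the scaffold of end ligation, rose by 1.06 ± 0.16 and was named after its values were seen. The median summed exon length was 7169 and 5778 bases in these lists, beside 3545 bases over all genes tested. Long genes were lower in ATLD in general, and the part of length in these results was not tested. With GC and length trends removed the counts were 12 lower and 1 higher of 20, and 21 lower and 6 higher of 34, with medians of -0.27 and -0.56 beside -0.18 over all genes. Atm was then at -0.99 and Prkdc at -0.97.

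Targets of p53 were split: of 34, 9 were called higher (26.5%) and 11 lower (32.4%), with a median of -0.04. These shares were near the 29.3% and 34.9% of all genes. Cdkn1a, the cell cycle inhibitor p21, was at 161 ± 12.7 CPM in WT and at 171 ± 18.05 CPM in ATLD and was not called (adjusted p = 0.622), and Mdm2, the ligase that degrades p53, was at 81.9 ± 2.17 and 80.9 ± 6.29 CPM (adjusted p = 0.415). These were named after their values were seen. Fas, a death receptor, was at 7.64 to 9.12 CPM in WT and at 38.6 to 42.9 CPM in ATLD (2.36 ± 0.15). Pmaip1, the pro-apoptotic protein Noxa, was at 13.7 to 18.3 and 2.25 to 3.35 CPM (-2.26 ± 0.17), and Pltp, a phospholipid transfer protein, fell by 3.83 ± 0.28. Genes of cell death and survival were split, with 9 of 32 tested higher (28.1%) and 8 lower (25%), no more than the 29.3% and 34.9% of all genes. Bik, a pro-apoptotic BH3 protein, rose by 2.95 ± 0.36, while Ripk3, the kinase of necroptosis, and Gsdmd, the pore-forming protein of pyroptosis, fell by 2.85 ± 0.24 and 2.96 ± 0.23.

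Interferon-stimulated genes were higher on balance, and not all in one direction. Of 76 tested, 43 were called higher and 9 lower, with a median of 0.64. Rtp4, an inhibitor of viral replication, was at 39.7, 36.5 and 24.8 CPM in WT, 41.4 CPM in the second run, and 177, 147 and 171 CPM in ATLD (2.20 ± 0.23). Irf7, the transcription factor that amplifies the interferon response, was at 22.1 to 43.7 CPM and 131 to 212 CPM (2.13 ± 0.29), and Oasl1, an oligoadenylate synthetase-like protein, at 1.29 to 2.60 and 16.1 to 22.9 CPM (2.90 ± 0.27). Slfn2, a Schlafen protein, rose by 2.69 ± 0.24, Cmpk2, a mitochondrial nucleotide kinase, by 2.38 ± 0.30, Ifit3 by 2.53 ± 0.45 and Ifit2 by 2.10 ± 0.30; the last pair are RNA-binding antiviral proteins. Mx1, an antiviral GTPase, went the other way, at 9.14, 8.55 and 6.65 CPM in WT, 8.39 CPM in the second run, and 1.23, 1.17 and 1.08 CPM in ATLD (-2.63 ± 0.31). The oligoadenylate synthetases Oas2 and Oas3 also fell, by 1.11 ± 0.31 and 1.71 ± 0.38, and were named after their values were seen. Without WT replicate 1, 3 members were called lower instead of 9.

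**Figure D3:**
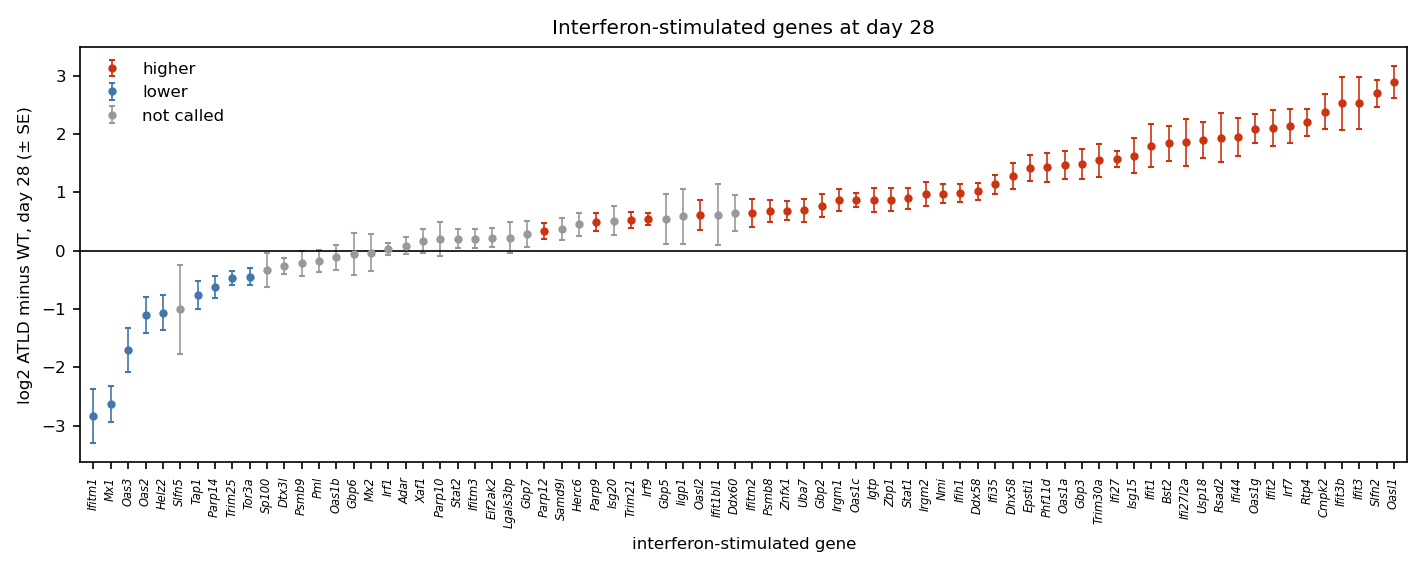
Fitted log2 difference of ATLD minus WT at day 28, with SE bars, for the 76 tested interferon-stimulated genes in order of the difference. The 43 genes called higher fill the right of the plot, up to Oasl1 at 2.90, and 9 called lower stand at the left, from Ifitm1 at -2.84 and Mx1 at -2.63.

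Sequences upstream of interferon-stimulated genes are printed because the core of the interferon-stimulated response element, which reads GAAA, any 2 bases and GAAA again, could be searched in them. The search covered both strands of 300 bases around each RefSeq start (GRCm38.p6), and a match on the opposite strand reads TTTC, any 2 bases and TTTC. Capitals mark each match, with a pair of overlapping matches in Oas1g and Bst2, and each line ends upstream of the start:
Ifit3: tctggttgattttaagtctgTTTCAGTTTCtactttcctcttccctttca
Oas1g: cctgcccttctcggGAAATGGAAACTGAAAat
Rsad2: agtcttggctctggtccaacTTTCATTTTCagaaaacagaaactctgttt
Bst2: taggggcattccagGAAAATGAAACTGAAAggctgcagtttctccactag
These lie at chr19:34583387-34583436 (plus strand), chr5:120887614-120887645 (minus strand), chr12:26456543-26456592 (minus strand) and chr8:71537567-71537616 (minus strand). Of the 8 interferon-stimulated genes named by the rule 6 matched a RefSeq promoter, and Ifit3 alone of these held the motif. The others shown were chosen after their values were seen, as called members that hold it. Oas1g, a further oligoadenylate synthetase, rose by 2.09, Rsad2, the antiviral enzyme viperin, by 1.94, and Bst2, the virus-tethering protein tetherin, by 1.84. Ifit3b, which rose by 2.52, holds the same 50 bases as Ifit3, so reads of these copies may be shared. The motif was in 3.44% of all 32851 promoters. It was in 20 of 40 promoters (50%) of the listed genes called higher, 1 of 5 of those called lower and 9 of 26 (34.6%) of those not called, so most of the contrast was between the list and all promoters.

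Nucleic acid sensors were higher in 15 of 27 tested cases and lower in 4, with a median of 0.53, or 0.27 with GC and length trends removed. Ifnar2, a subunit of the type I interferon receptor, was at 17.6 to 22.2 CPM in WT and at 68.3 to 77.6 CPM in ATLD (1.72 ± 0.10). Enpp1, which degrades the second messenger cGAMP, was at 449 to 542 and 61.7 to 91.4 CPM (-2.59 ± 0.17), and Ikbke, a kinase upstream of the interferon factors, fell by 1.32 ± 0.14. Cgas, the sensor of cytosolic DNA that makes cGAMP, was lower by 1.08 ± 0.16, and Tmem173, the adaptor STING that cGAMP binds, was higher by 0.29 ± 0.10; this pair was named after its values were seen. Of 8 tested Ifi200 genes, interferon-inducible DNA-binding proteins with close copies that can share reads, 4 were called higher (50%) and 2 lower (25%). Over all genes the shares were 29.3% and 34.9%. Ifi204 was at 5.26 to 7.10 CPM and 22.8 to 28.6 CPM (2.05 ± 0.22), Ifi211 rose by 1.74 ± 0.20 and Ifi205 by 1.36 ± 0.27, and Ifi202b fell by 0.81 ± 0.17. In antigen presentation, 7 of 23 genes were higher (30.4%) and 5 lower (21.7%), beside 29.3% and 34.9% of all genes, with a median of -0.10. The counts were 5 higher and 11 lower with GC and length trends removed (median -0.43). They were 3 higher with a batch term of its own for each day, 1 higher in the compared days alone and 10 higher in the 6 original day 28 libraries with no batch term. The summed level of the list was higher in ATLD, at 1540 to 2278 CPM in WT and 3032 to 3765 CPM in ATLD. H2-Ab1, a chain of MHC class II, was at 15.9, 10.7 and 14.8 CPM in WT, 16.6 CPM in the second run, and 1.14, 0.977 and 1.51 CPM in ATLD (-3.70 ± 0.32). Cd74, the class II chaperone, fell by 2.50 ± 0.37 and Nlrc5, the activator of class I genes, by 2.49 ± 0.24. The class I light chain B2m rose nevertheless, from 452 ± 51.96 CPM to 893 ± 114 CPM (0.88 ± 0.17), named after its values were seen.

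Of 38 chemokines and cytokines 19 were called higher (50%) and 13 lower (34.2%), beside 29.3% and 34.9% of all genes. Their median was 0.56. The median was 0.08 with GC and length trends removed, where 16 were lower, 0.99 in the second batch alone and 0.85 without WT replicate 2. Il33, an epithelial alarmin, was at 321, 397 and 329 CPM in WT, 321 CPM in the second run, and 19.5, 27.8 and 24.0 CPM in ATLD (-3.71 ± 0.14). Tgfb2, a transforming growth factor, was at 4.34 to 5.56 CPM and 42.1 to 55.5 CPM (3.22 ± 0.14), and Cxcl12, a chemokine of stromal and epithelial cells, at 5.72 to 6.31 and 29.0 to 32.0 CPM (2.35 ± 0.13). Of the NF-kB subunits and feedback genes 6 of 18 were higher (33.3%) and 5 lower (27.8%), beside 29.3% and 34.9% of all genes. The higher ones were 3 without WT replicate 1 and 10 in the original libraries with no batch term. Tnfrsf1b, a tumour necrosis factor receptor, rose by 2.12 ± 0.14, and Icam1, an adhesion molecule of leukocytes, fell by 1.44 ± 0.20.

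Receptors and ligands of the ERBB family were split, with 7 of 17 tested called higher (41.2%) and 9 lower (52.9%). Over all genes the shares were 29.3% and 34.9%. With a batch term of its own for each day 6 of the 17 were called lower. Among the ligands Btc, betacellulin, was at 4.86 to 7.01 CPM in WT and at 23.02 to 28.6 CPM in ATLD (2.25 ± 0.16), and Nrg1, neuregulin 1, fell by 1.28 ± 0.14. Of the feedback inhibitors of the receptors, Lrig1 rose by 1.43 ± 0.19 and Lrig3 fell by 2.13 ± 0.15. The receptor Erbb4, named after its values were seen, was at 0.164 to 0.232 CPM in the original WT libraries, 0.0613 CPM in the second run, and 4.21, 6.94 and 11.7 CPM in ATLD (5.71 ± 0.56). Downstream, 17 of 28 feedback and target genes of ERK, the kinase below these receptors, were called lower and 6 higher, with a median of -0.84. Fosb, an immediate early transcription factor, was at 172, 121 and 161 CPM in WT, 174 CPM in the second run, and 3.595, 2.53 and 15.7 CPM in ATLD (-4.68 ± 0.49), and Egr3, another, fell by 2.41 ± 0.15. Etv1, an ETS factor, was at 1.32 to 1.56 CPM in WT and at 15.9, 23.4 and 20.5 CPM in ATLD (3.89 ± 0.20), and Spry4, a feedback inhibitor of receptor kinases, was at 0.849 to 1.33 and 8.56 to 11.5 CPM (2.99 ± 0.18).

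Genes of NOTCH and WNT signalling were lower in 20 of 32 tested cases and higher in 7, with a median of -1.39. Axin2, a feedback target of WNT signalling, was at 7.73 to 12.1 CPM in WT and at 1.43 to 1.51 CPM in ATLD (-3.16 ± 0.30), and Wnt4, a WNT ligand downstream of progesterone, fell by 3.34 ± 0.25. Wnt7b, another ligand, was at 10.6, 6.79 and 9.73 CPM in WT, 12.4 CPM in the second run, and 142, 127 and 159 CPM in ATLD (3.53 ± 0.23). Bmp7, a bone morphogenetic protein, fell by 4.03 ± 0.26 and Id1, a target of that pathway, rose by 3.06 ± 0.26. Targets of NRF2, the factor of the oxidative stress response, were higher in 13 of 25 tested cases (52%) and lower in 6 (24%). The shares over all genes were 29.3% and 34.9%. Mgst1, a microsomal glutathione transferase, was at 198 to 231 CPM and 1599 to 1866 CPM (3.05 ± 0.16), while Gsta4, a cytosolic one, fell by 2.73 ± 0.16. In the unfolded protein and integrated stress response 16 of 31 genes were higher and 4 lower, or 8 lower with GC and length trends removed. Sdf2l1 and Dnajb9, chaperones of the endoplasmic reticulum, rose by 1.31 ± 0.17 and 1.39 ± 0.17, and Phgdh, the first enzyme of serine synthesis, and Slc7a11, the cystine transporter, fell by 1.81 ± 0.27 and 1.89 ± 0.20.

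A few genes were on in one genotype and off in the other over all 21 libraries, at 1 CPM or more against 0.1 CPM or less. Gm7292, a non-coding RNA on chromosome 6, was at 6.68, 10.1 and 6.88 CPM in WT at day 28, 8.60 CPM in the second run, and had 0 counts in the 3 ATLD libraries. 4921518K17Rik, an antisense RNA on chromosome 12, was at 8.48 to 12.4 CPM and 0.0235 CPM or less. Xlr3b on chromosome X was at 2.61 to 5.42 CPM and 0 counts, and 5430419D17Rik on chromosome 7 at 1.48 to 2.11 CPM and 0.0637 CPM or less. Gm14305 on chromosome 2 was the reverse, at 0.0822 CPM or less in WT and 2.18, 2.29 and 2.38 CPM in ATLD. Separation at every day, with neuT or without, was the rule that picked these genes and is no result. Genes beside Mre11a on chromosome 9 were not called more often than elsewhere: 52.5% of 40 genes within 5 Mb and 60% of 110 genes at 5 to 10 Mb were called, beside 64.2% of all genes. Farther along that chromosome the shares were higher, at 69.2% of 39 genes at 10 to 20 Mb, 72.8% of 195 at 20 to 40 Mb and 68.8% of 695 beyond.

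The day 28 difference was then set against the genotype difference at day 0, before neuT was switched on. At day 0 10483 genes (55.6%) were called. The change of the difference between the days was called for 6031 genes (32%), 2934 higher (15.6%) and 3097 lower (16.4%). Of the genes called at both days, 7386 had the same sign and 781 the opposite sign, and 3930 were called at day 28 and not at day 0. The 2 comparisons of genotypes share no library, but both rest on the batch term. With a batch term of its own for each day, 3080 genes were called for the change.

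Csn3 had the largest rise among these. Its mean was 6072 ± 508 CPM in WT and at 4890 ± 875 CPM in ATLD at day 0, and the genotype difference then was -0.28, so the change to day 28 was 9.13 ± 0.29. The WT level was 18.9 ± 4.84 CPM at day 14, when ATLD was at 3563 ± 517 CPM, so the genotypes already stood apart at that day. Crispld2, Them5, Ltf and Chil1 followed, with changes of 7.33 ± 0.22, 7.14 ± 0.28, 6.59 ± 0.17 and 6.56 ± 0.21. The largest changes downward were of Stmn2, a tubulin-binding protein (-9.65 ± 0.28), Ndufa4l2 (-9.01 ± 0.89), Hmga2, a chromatin protein of fetal tissues (-7.73 ± 0.34), Stfa3, a protease inhibitor (-7.22 ± 0.62), and Slc16a3 (-6.83 ± 0.65). Hmga2 was at 0.155 ± 0.0699 CPM in WT and at 3.37 ± 0.746 CPM in ATLD at day 0, and at 11.9 ± 0.991 and 0.998 ± 0.275 CPM at day 28. Its order was thus reversed between the days. Stmn2 behaved alike, at 0.0951 and 5.01 CPM at day 0 and 16.6 and 1.06 CPM at day 28 (group means of WT and ATLD). Vegfa was at 15.1 ± 0.913 CPM in WT and at 27.1 ± 2.61 CPM in ATLD at day 0, and its ATLD level was 24.8 ± 1.22 CPM at day 28, while the WT level was 238 ± 42.2 CPM.

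**Figure D4:**
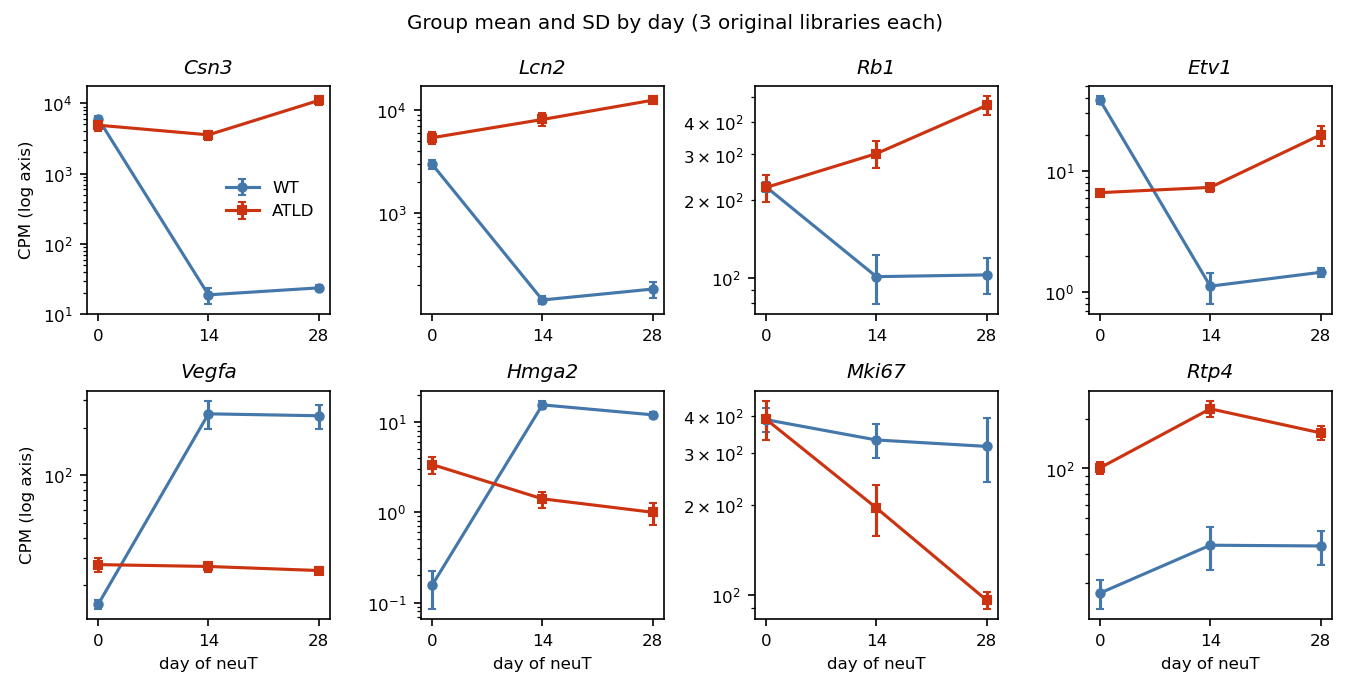
Group means with SD over 3 original libraries, in CPM on log axes, for WT (circles) and ATLD (squares) at day 0, 14 and 28. Csn3, Lcn2 and Etv1 are low in WT from day 14 on and stay up in ATLD, Vegfa and Hmga2 are high in WT from day 14 on, Mki67 falls to 95.8 CPM in ATLD, and Rtp4 is higher in ATLD at every day.

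Gene groups differed in how far their day 28 difference was present at day 0. The median of the luminal progenitor list was 0.58 at day 0 and 3.22 at day 28, with the change called higher for all 20 members. The hypoxia list had a median of 0.29 at day 0 and -0.82 at day 28, and the squamous list -0.25 and -2.78. The G2 and mitosis genes went from a median of 0.60 to -0.83, and the change was called lower for all 32. Recombination genes went from 0.10 to -0.71. The interferon-stimulated list had a larger median at day 0, at 1.02, than at day 28, at 0.64. Of its 76 tested members the change was called lower for 19 and higher for 2. Rtp4, Irf7 and Slfn2 had changes of -0.33 ± 0.26, 0.10 ± 0.34 and 0.01 ± 0.27 between the days, none of them called. Foxa1 and Il33 were also low in ATLD before neuT, with differences of -5.00 ± 0.21 and -4.45 ± 0.14 at day 0.

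Gene length moved with the genotype difference, and the same trend was there at day 0 and day 14. Over protein-coding genes, the median day 28 difference was 0.47, 0.29, 0.04, -0.15 and -0.42 in 5 bins of 2856 to 2859 genes from the shortest to the longest summed exons. In the second batch alone, where the second run of WT replicate 1 stands for WT, it went from 0.53 to -0.35. Across 5 bins of GC content the day 28 medians lay between -0.04 and 0.06. With offsets for the GC and length trends of each library, the length bins were level. The GC bins then went from 0.13 in the lowest to -0.22 in the highest. That alternative thus took the length trend out of the genotype difference and left one with GC that the main fit did not have. The part of this trend in the gene results was not tested. With GC and length trends removed, an alternative added after the data were seen, 18 of 20 luminal progenitor genes (higher), 32 of 32 mitotic genes (lower) and 44 of 76 interferon-stimulated genes (higher) were called. The same alternative moved the median of NRF2 targets from 0.57 to 0.19, of hormone-sensing luminal genes from -1.66 to -1.04, of ERBB receptors and ligands from -0.52 to -0.23 and of G1 control genes from -0.07 to -0.38. Of 9 mitochondrially encoded genes 6 were called lower under it, and their median went from 0.13 to -0.45.

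**Figure D5:**
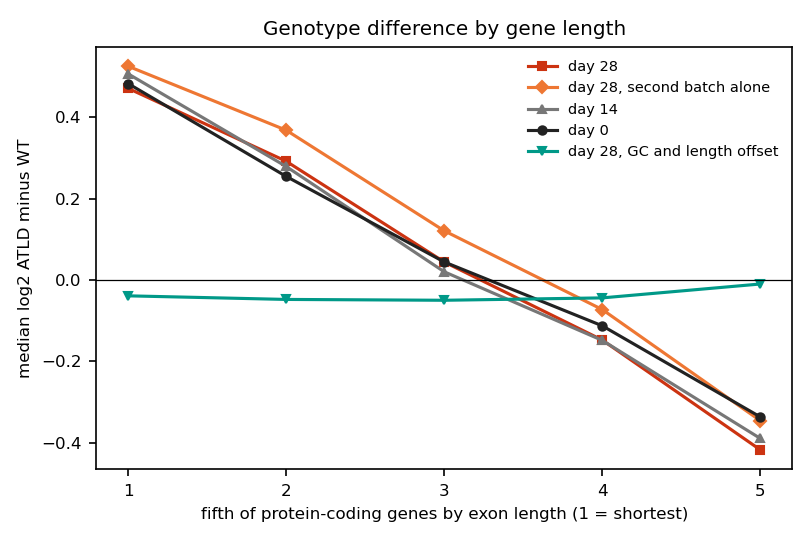
Median log2 difference of ATLD minus WT over protein-coding genes, in 5 bins by summed exon length from the shortest (1) to the longest (5), at day 0, 14 and 28, for the second batch alone and after removal of GC and length trends. All curves but the last go down with length, at day 28 from 0.47 to -0.42.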

How the data were processed

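RNA of 21 libraries (polyadenylated RNA, stranded TruSeq preparation) had been counted per gene; the authors deposited raw counts for 55536 Ensembl genes, per the file headers, with featureCounts, DESeq2 and mm10 named in the submitters' processing notes. The deposited table has one other column, gene length. Which aligner, strand setting and annotation release were used is not given in the sources used here. All IDs matched GENCODE vM21 with equal start and end; 0 rows named no gene.

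Genes passed filterByExpr (minimum count 10, minimum total 15) in edgeR 4.0.16 (R 4.3.3), were scaled by TMM, and entered a quasi-likelihood fit of all libraries with 6 genotype and day groups and a batch term (first: original WT; second: ATLD and 3 resequenced WT runs). Two-sided F tests were Benjamini-Hochberg adjusted. A second run is not an independent culture, and the batch term rests on 3 WT cultures. Whether a second run used the same library or a new one is not given in the labels. Means ± SD are over 3 original libraries. Members of lists were counted as called over all genes, with no test of a list. Named genes are Mre11a, Erbb2, the 10 largest rises and falls (adjusted p under 0.05, mean log2 CPM of at least 1, groups not overlapping, plain symbol), up to 4 per list (8 interferon-stimulated, 6 Ifi200), on and off genes, and the 5 largest rises and falls of the change from day 0. Some genes that this rule names are not reported here. The members and lists were chosen with earlier results of these data known. Simulated data with 200 changed genes gave 78% of 2-fold and 100% of 4-fold changes at day 28, with 1.66% of the calls false, and 67% and 99% for the change from day 0, with 7.26% false; both genotypes otherwise had equal means there, unlike the real data. Alternatives were median-of-ratios scaling, no filter, DESeq2 1.42.0, limma 3.58.1 voom, other uses of the batches, a replicate block, GC offsets and leaving out libraries. Promoters are RefSeq GRCm38.p6.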

Additional observations from a re-analysis of the deposited data

Results flagged for a closer look

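For 111 of 127 genes of the named set that the text describes, the genotype difference at day 28 was other than the one at day 0, by the test of the change itself in edgeR. The set was chosen in part for large differences and changes, so this share follows from the choice and is no result, beside 32% called over all genes. The change was upward for 41 and downward for 70, and 92 of the 111 were also called with a batch term of its own for each day; the other 19 were Shank1, Atm, Fancm, Prkdc, Fas, Ifit2, Ifi204, Ifi205, Enpp1, Btc, Nrg1, Foxa1, Jag2, Col7a1, Fbn1, Dnajb9, Mest, Bik and 4921518K17Rik. Values are log2 changes of the ATLD minus WT difference from day 0 to day 28, and no explanation was tested.

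Genes of milk and of luminal progenitors changed upward, as did others among the largest rises. Csn3 had 9.13, Crispld2 7.33, Them5 7.14, Ltf 6.59, Chil1 6.56, Alpl 6.16, Lcn2 5.19, Sox10 4.72 and Saa2 4.66. Dcdc2a, Wfdc18, Csn1s1, Saa1, Muc15 and Aldh1a3 had 4.05, 3.35, 3.11, 3.03, 2.80 and 2.52. The simple-epithelium genes Krt7, Cldn7 and Krt18 had 2.30, 1.46 and 1.21.

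Genes of signalling, stress response, matrix and other functions went both ways. Upward were Etv1 with 6.27, Grb10 4.76, Spry4 4.71, Cxcl12 3.97, Id1 3.86, Fn1 3.6, Osgin1 3.22, Tnfrsf1b 2.52, Tgfb2 2.27, Rb1 2.18, Wnt7b 2.10, Lrig1 1.86, Bik 1.70, Mgst1 1.38, Sdf2l1 1.06, Dnajb9 0.931, Fas 0.878 and Btc 0.666. Downward were Axin2 with -3.92, Fosb -3.31, Bmp7 -3.12, Jag2 -3.10, Wnt4 -2.54, Icam1 -2.17, Axl -1.94, Itga5 -1.92, Egr3 -1.35, Lrig3 -1.22 and Nrg1 -0.540. Foxa1 and Il33, which were already low in ATLD at day 0, had 0.724 and 0.743.

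Hypoxia genes changed downward, with -9.01 for Ndufa4l2, -6.83 for Slc16a3, -4.08 for Vegfa and -2.18 for P4ha1. So did Stmn2 with -9.65, Hmga2 -7.73, Stfa3 -7.22, Cd109 -5.22, Sema3b -4.93, Aldh1a1 -4.57, H19 -4.47, Gsta4 -4.40, Ripk3 -3.70, Pmaip1 -3.28, Phgdh -3.20 and Pltp -3.15. Smaller downward changes were of Gsdmd with -2.13, Slc7a11 -1.75, Aldh3a1 -1.05 and Mest -0.874.

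Further downward changes were of Dsc3 with -4.15, Fat2 -3.68, Krt6a -3.63, Dsg3 -3.49, Calml3 -3.46, Shank1 -2.99, Col17a1 -2.60, Dchs2 -2.55, Fbn1 -2.42, Cdh3 -2.39, Fgb -2.39, Lama3 -2.23, Col7a1 -2.11 and Ly6d -1.91.

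Of the cell cycle and repair genes described, these changed downward, with Ccnd2 at -4.15, Rad51b -2.37, Cenpf -1.93, Cdk6 -1.84, Cenpa -1.75, Mki67 -1.70, Rrm2 -1.55, Mcm10 -1.52, Brca1 -1.51, Foxm1 -1.45, Polq -1.44, Rbbp8 -1.42, Fancm -1.06, Pole -1.0, Prkdc -0.862 and Atm -0.796.

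In immune genes H2-Ab1 had -4.32, Cd74 -3.75, Mx1 -2.67, Nlrc5 -2.26, Ifi202b -2.12, Ifi205 -1.99, Ikbke -1.14 and Enpp1 -0.714, while Ifit2, Ifnar2 and Ifi204 had 1.35, 1.33 and 1.16. For 4921518K17Rik, with at most 1 read per ATLD library at day 28, the fitted -3.11 depends on the prior count and is no measured size.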

How the results depend on the processing

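The number of genes called at day 28 stayed within 1.5 times of 12097 in every alternative run, from 8781 in a fit of the compared days alone to 13445 with a GC offset. The change from day 0 fell from 6031 genes to 3104 (1578 higher, 1526 lower) in the second batch alone and to 3080 (1550 higher, 1530 lower) with a batch term of its own for each day. Leaving out 1 replicate at a time gave 9856 to 12054 calls at day 28 and 4908 to 5894 for the change. Both were lowest without WT day 28 replicate 1, a culture run in both batches, whose second run was left out with it. Deviations of same-numbered day 28 libraries from their group means correlated at r = 0.464, 0.562 and -0.0796, and those of differently numbered ones at -0.516 to 0.395. Deviations from a mean of so few libraries depend on each other, so these values cannot tell whether replicate numbers pair the samples. With a replicate block 11056 and 5598 genes were called, and 12734 and 7539 with block and GC offset. With GC and length trends removed 13185 and 8218 were called, 10425 of the 12097 calls held their sign, 78 turned, and the median over all genes moved from -0.05 to -0.18. In that fit the day 28 difference fell with GC content, which it did not in the main fit. Of 3192 values of 152 genes under the alternatives, 3170 kept direction and call, 21 lost the call, 1 gained it and none turned. The losses were of Erbb2, Erbb3, Mbp and Hist2h2be and the gain of Stfa3. In the second batch alone WT has 1 culture per day, so its spread between cultures is taken from the other groups. At 32548362 to 51757203 counts a library, depth limits the fold of genes at or near 0 counts in a genotype.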

Other observations

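Among 18 tested genes of the epithelial-mesenchymal transition 9 were lower (50%) and 5 higher (27.8%), beside 34.9% and 29.3% of all genes. Axl, a receptor kinase, was at 453 ± 63.3 CPM in WT and at 65.2 ± 9.48 CPM in ATLD (SD, n = 3), and Itga5, the fibronectin receptor subunit alpha 5, at 38.3 ± 7.10 and 3.16 ± 0.913 CPM, while its ligand gene Fn1 was higher by 3.46 ± 0.43. Targets of TGF-beta and YAP were split, with 9 of 23 tested higher (39.1%) and 10 lower (43.5%), beside 29.3% and 34.9% of all genes, although Tgfb2 was among the higher genes.

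Of 12 tested imprinted and oncofetal genes 9 were lower and 2 higher; Mest, an imprinted hydrolase, was at 13.0 ± 1.43 and 1.13 ± 0.331 CPM. Of 19 aldehyde dehydrogenases 5 were higher (26.3%) and 7 lower (36.8%), near the 29.3% and 34.9% of all genes, with Aldh3a1 lower by 1.94 ± 0.17. Osgin1, an NRF2 target of the oxidative stress response, was at 1.12 ± 0.302 and 13.1 ± 1.17 CPM. Sftpd, a surfactant protein also made outside the lung, was at 0.211 to 0.712 CPM in the original WT libraries and 13.5 to 16.95 CPM in ATLD, opposite to the other lung transcripts; it was singled out after its values were seen.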
